A study of Mus musculus with 3 samples.

Results

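The mitochondrial ribosome was read here through the 76 genes whose symbol, in the platform's probe annotation, is Mrpl or Mrps followed by a number and at most 1 letter from a to c. They were 76 of 18193 genes with a probe set of their own on the array, 47 named for the large subunit (Mrpl) and 29 for the small subunit (Mrps). The rule used names only and no measured value, except that where a gene had several probe sets the one with the highest mean over the 3 arrays stood for it. Members on probe sets shared with another symbol, such as Mrpl30 and Mrpl53, did not enter. Transcript levels came from Affymetrix mouse arrays probed with biotin-labelled RNA. The cells were memory phenotype CD4 T cells, helper T cells with the surface look of past antigen contact, taken from spleen by flow sorting at a stated purity above 99%. All mice were BALB/c and no allele or other agent is named. The ND group held 1 array from mice on a normal diet, and the HFD group held 2 arrays from mice given a diet with 60 kcal% fat. Both diets lasted 10 weeks, and the sources used here do not give the age of the mice, their number or any pooling. The p-values therefore reflect the scatter of these samples alone, measured between the 2 HFD arrays and pooled in part over genes. That scatter may be technical.

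Mitochondria keep a ribosome of their own, which makes the few proteins encoded by mitochondrial DNA, all of them subunits of the respiratory chain and ATP synthase. Its RNAs are mitochondrial, whereas every protein of both subunits is encoded in the nucleus, made in the cytosol and imported. Many of these proteins have a counterpart in the bacterial ribosome, and the rest arose in the mitochondrial lineage. T cells enlarge and reshape their mitochondria when they leave quiescence.

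Nearly every mitochondrial ribosomal protein gene read higher on both HFD arrays than on the ND array. Of the 76 members, 66 rose and 0 fell in HFD, and 10 were not called in either direction. The median member was 1.62-fold higher (log2 0.70), and the range ran from 1.01-fold for Mrpl10 to 3.60-fold for Mrps28. All 76 genes passed the filter on dim values (a mean over the 3 arrays above 71.4, the median of all probe sets), so none was left out of the fit. A call is an adjusted p under 0.05 in limma's moderated test over 10341 genes, on log2(intensity + 17.65), a scale that understates the change of dim genes. Across all genes tested, 49.6% were called, 20.5% higher and 29.2% lower, and the median gene lay 0.15 lower on the log2 scale. These shares depend on brightness, and the members are bright. With a filter at the 75th percentile (473.5), 1877 of 6550 genes were called higher (28.7%) and 2326 lower, against 66 of 75 members higher. In bulk RNA, more cells rich in these transcripts and more of them per cell cannot be told apart.

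The members moved alike on each HFD array. The median intensity over members was 1428 in ND, 2423 in HFD 1 and 2708 in HFD 2. A total of 75 of 76 members lay above ND on both HFD arrays, against 35.8% of all genes, and Mrpl10 was the exception, just below ND on HFD 1. In 73 members the smaller of the HFD to ND differences exceeded the gap between the HFD arrays, a share that was not counted over all genes. Taken without sign, the median gap over all genes tested was 0.13 on the log2 scale, against median differences from ND of 0.39 and 0.45. Among members these medians were 0.10, 0.65 and 0.75. At least 1.5-fold in both HFD arrays was reached by 44 members upwards, against 12.7% of all genes. No member was 1.5-fold lower in both, against 14.9% of all genes. The HFD arrays themselves differed slightly: 69 of 76 members read higher on HFD 2 than on HFD 1, with a median gap of 0.10 on the log2 scale, against 50.6% of all genes and a median gap of 0.00.

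**Figure D1:**
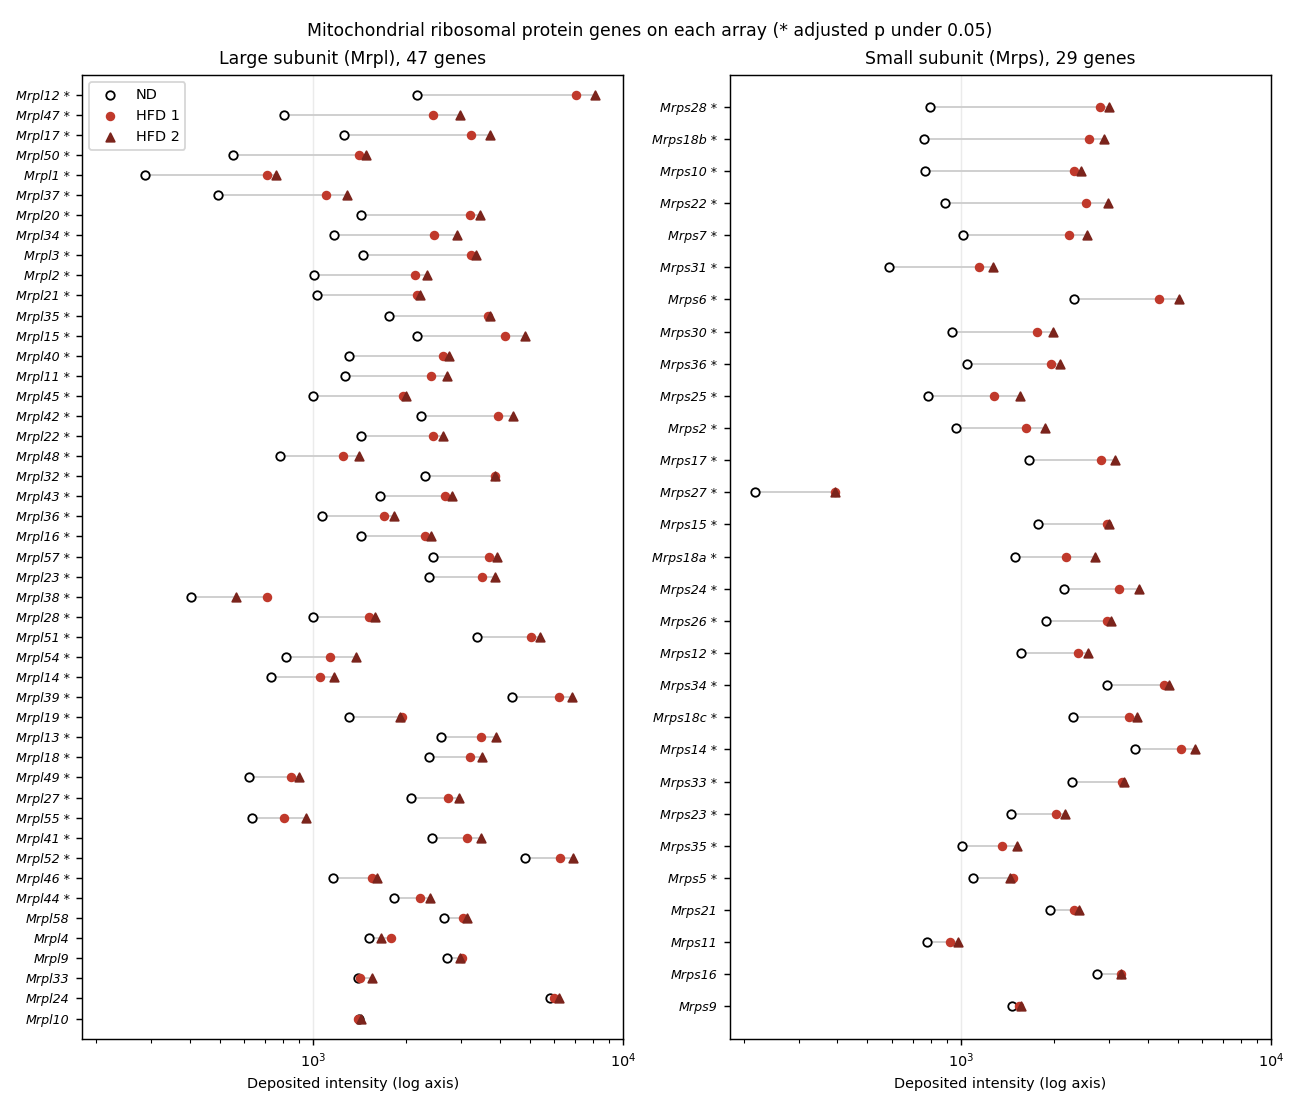
Deposited intensity (log axis) of each of the 76 members on the ND array (open circles), HFD 1 (filled circles) and HFD 2 (triangles), by subunit and ordered by difference, with an asterisk for an adjusted p under 0.05. For 75 members both HFD points lie to the right of ND, while levels are not comparable between genes because each has its own probes.

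The sampled cells carried T cell transcripts on all arrays. Of 12 markers listed for CD4 T cells, 9 had a probe set of their own. Their summed intensity was 89192 on ND and 76694 and 74174 on the HFD arrays, and 6 of the 9 were called lower and 0 higher. Cd4 itself read 911 on ND and 609 and 377 on the HFD arrays and was called lower (log2 -0.90). Myeloid and dendritic cell markers (15 of 16 on the array) summed to 7336 on ND and to 2692 and 3359 in HFD, and of 10 tested 8 fell and 0 rose. B cell markers (9 of 10 on the array) summed to 1488 on ND and to 2704 and 2762 in HFD, and of 4 tested 1 rose and 1 fell. Ms4a1, called 23.4-fold higher, carried the whole increase: the other 8 markers summed to 1432, 1092 and 924, and Cd22 fell from 939 to 605 and 504. CD8 markers summed to 449, 581 and 715 and NK cell markers to 415, 552 and 642 on ND, HFD 1 and HFD 2, and no listed marker read 0 on any array. The part of these other cell types in the differences of the mitochondrial ribosome genes was not tested. With 1 ND array, the diet and whatever else set that sample apart cannot be told apart, and the lone array was assumed to vary like the HFD arrays.

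Both subunits gave similar counts and medians. Of 47 large subunit genes 41 rose (87.2%), and of 29 small subunit genes 25 rose (86.2%), with 0 lower in either. The median log2 difference was 0.64 for the large and 0.70 for the small subunit, so large minus small was -0.06. On HFD 1 alone the medians were 0.66 and 0.65, and on HFD 2 alone 0.74 and 0.80. That gap turned sign with the array, and also with the assignment of genes. Mrps30 and Mrps18a carry small subunit names, but structures place their proteins in the large subunit, and Mrps36 belongs to a dehydrogenase complex rather than to the ribosome. With these reassigned, the medians were 0.70 for 49 large and 0.68 for 26 small subunit genes, a gap of 0.01. No test between subunits was run, because the members were chosen with earlier results of these data known.

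**Figure D2:**
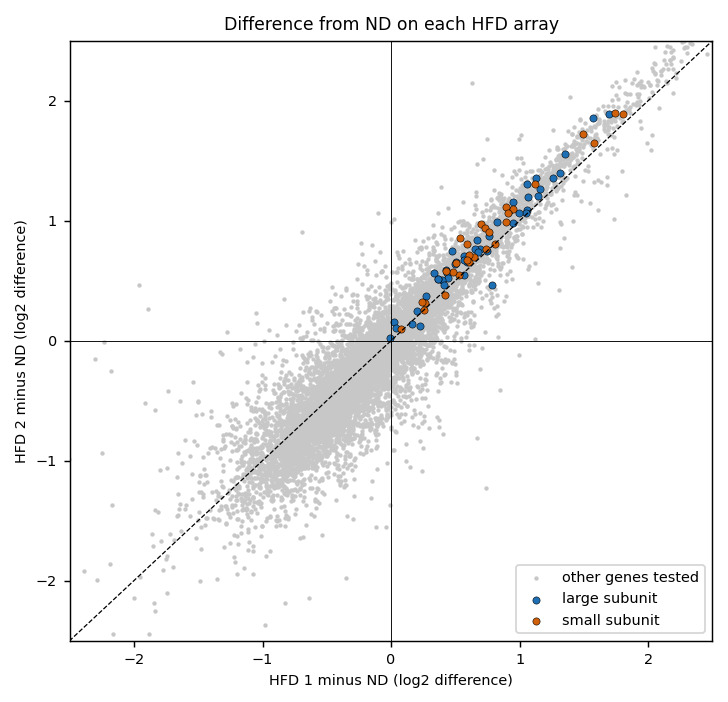
Log2 difference from ND on HFD 1 (horizontal) and HFD 2 (vertical) for large subunit members, small subunit members and all other genes tested (grey, with 74 of 10265 outside the axes). Large and small subunit genes lie in the same upper right stretch, mostly just above the dashed line of equal difference.

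Among large subunit proteins with a bacterial counterpart, 24 of 29 measured genes rose. Mrpl12, the stalk protein that recruits translation factors, read 2167 on ND and 7042 and 8098 on the HFD arrays. It rose 3.46-fold (log2 1.79 ± 0.11 SE, adjusted p = 8.3e-08), the largest increase of the subunit. Mrpl47, a protein at the exit of the tunnel through which the new chain leaves, read 807, 2440 and 2967 and rose 3.28-fold (log2 1.71 ± 0.14, adjusted p = 9.0e-07). Mrpl17, also at the tunnel exit, read 1254, 3232 and 3714 and rose 2.74-fold (log2 1.45 ± 0.12, adjusted p = 1.4e-06). In all 3 genes both HFD arrays lay far above ND and HFD 2 lay above HFD 1, most widely in Mrpl47 (log2 differences from ND of 1.57 and 1.86). Mrpl1, which forms the stalk on the side where tRNA leaves, read 287, 710 and 761 and rose 2.47-fold (log2 1.31). Its other probe set past the filter (226, 272 and 350) was not called (log2 0.42, adjusted p = 0.13). With probe sets averaged Mrpl1 read 0.86 on the log2 scale and was still called (adjusted p = 0.0037). Mrpl20 read 1426, 3206 and 3455 and rose 2.32-fold. Mrpl34, Mrpl3, Mrpl2, Mrpl21, Mrpl35 and Mrpl15 rose 2.07 to 2.27-fold. Mrpl3 and Mrpl2 belong to the core around the centre that forms peptide bonds.

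Values within 1 site of the ribosome spanned a wide range. At the stalk, Mrpl12 and Mrpl10 bind each other, yet Mrpl10, the base to which Mrpl12 attaches, read 1403 on ND and 1393 and 1428 in HFD (log2 0.01 ± 0.13, adjusted p = 0.97). Its HFD values lay on either side of ND, and it was the member nearest to no difference. The other stalk genes measured, Mrpl11 (1269, 2407 and 2702) and Mrpl54 (815, 1138 and 1379), rose. At the tunnel exit 7 of 8 genes rose. The eighth, Mrpl24, read 5793 on ND and 5964 and 6223 in HFD (log2 0.07 ± 0.10, adjusted p = 0.55), and it turned to -0.05 with quantile normalization. Mrpl45, which holds the ribosome to the inner membrane, read 999, 1949 and 1994 and rose 1.96-fold. At the central protuberance 7 of 8 genes rose: the median was 0.47 on the log2 scale and Mrpl40 the highest at 1.03.

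Of the large subunit proteins that the ribosome nomenclature lists as specific to mitochondria, 19 of 20 measured genes rose, counting Mrps30 and Mrps18a here. Mrps18a in this class and Mrps18b in that of the small subunit are nevertheless paralogs of a bacterial-type protein, S18, and without them the counts were 18 of 19 and 9 of 9. Mrpl50 read 552, 1403 and 1480 on ND, HFD 1 and HFD 2 and rose 2.56-fold (log2 1.36 ± 0.14, adjusted p = 5.7e-06). Mrpl37 read 493, 1098 and 1289 and rose 2.37-fold. Mrpl52 read 4842, 6245 and 6913 and rose 1.36-fold. Its call ended without a variance trend (adjusted p = 0.0699) or with probe sets averaged (adjusted p = 0.0503). Mrpl58, a peptidyl-tRNA hydrolase that became a ribosomal protein, was the only uncalled gene of this class: it read 2647, 3040 and 3145 (log2 0.22 ± 0.11, adjusted p = 0.11). Both HFD values lay above ND, and centring the arrays made it a call (adjusted p = 0.0115).

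Small subunit genes held the largest increase of the family. Mrps28, a protein with a bacterial counterpart, read 795 on ND and 2820 and 2999 on the HFD arrays. It rose 3.60-fold (log2 1.85 ± 0.12 SE, adjusted p = 1.5e-07). Mrps10 read 767, 2324 and 2443 and rose 3.06-fold (log2 1.61 ± 0.13, adjusted p = 6.1e-07). Mrps10 and Mrps7, both in the head of the subunit, have bacterial counterparts too. Mrps7 read 1019, 2232 and 2550 and rose 2.32-fold. Mrps22, specific to mitochondria, read 890, 2536 and 2981 and rose 3.05-fold (log2 1.61 ± 0.13, adjusted p = 1.0e-06). Mrps31 read 585, 1147 and 1273 and rose 2.03-fold. In each of these genes both HFD values lay well above ND. All 10 mitochondria-specific genes of the small subunit rose, at a median log2 difference of 0.74, and of 16 genes with a bacterial counterpart 12 rose, at a median of 0.68. Mrps34 and Mrps14 rose 1.55-fold and 1.49-fold, and the Mrps14 call ended with probe sets averaged (adjusted p = 0.0513).

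The 3 paralogs of bacterial S18 rose by unequal amounts. Mrps18b read 763 on ND and 2595 and 2891 in HFD and rose 3.53-fold (log2 1.82 ± 0.13 SE, adjusted p = 2.4e-07). Mrps18a, the paralog placed in the large subunit, read 1492, 2177 and 2714 and rose 1.62-fold (log2 0.70 ± 0.14, adjusted p = 0.0013). Mrps18c read 2309, 3479 and 3691 and rose 1.55-fold (log2 0.63 ± 0.11). The difference between paralogs was not tested, and each rests on 1 probe set. Mrps30 read 934, 1766 and 1977 and rose 1.98-fold. Mrps36, the dehydrogenase component with a ribosomal name, read 1046, 1960 and 2089 and rose 1.92-fold.

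Of the 10 uncalled genes, 9 belong to the class with bacterial counterparts. Over both subunits, 36 of 45 genes of that class and 29 of 30 mitochondria-specific genes were called higher, with medians of 0.71 and 0.65. With Mrps18a and Mrps18b moved to the first class, the counts were 38 of 47 and 27 of 28. Mrps21 read 1933, 2326 and 2402 (log2 0.29 ± 0.12, adjusted p = 0.0573). Mrps16 read 2750, 3286 and 3284 (log2 0.25 ± 0.11, adjusted p = 0.0683). Mrps11 read 779, 926 and 979 (log2 0.28 ± 0.14, adjusted p = 0.11). These 3 small subunit genes lay above ND on both HFD arrays and were called once arrays were centred (adjusted p from 0.0036 to 0.0123). Quantile normalization also called Mrps11 (adjusted p = 0.0362) and Mrps21 (0.0455), and Mrps21 was called as well with the stricter filter, averaged probe sets or the robust variance model (adjusted p from 0.0176 to 0.0477). Mrpl4 read 1519, 1777 and 1658 and Mrpl9, whose long shape spans the subunit's surface, read 2706, 3033 and 2983. Among the alternative fits of genes, both were called with centred arrays alone (adjusted p = 0.0436 and 0.0455). With probe sets fitted on their own, a less bright one of Mrpl9 (2272, 2908 and 3029) was called higher (log2 0.38, adjusted p = 0.0147). Another of Mrpl9 was not (log2 0.23, adjusted p = 0.22). A dimmer probe set of Mrps21 was also called higher (log2 0.72, adjusted p = 0.0276). Mrpl33 read 1393, 1412 and 1552 and Mrps9 read 1465, 1543 and 1564. For these last genes the difference (log2 0.09 ± 0.13 and 0.08 ± 0.13) was smaller than its error. Mrpl33 turned to -0.11 with probe sets averaged.

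A further 80 probe sets of the members were less bright than the chosen one, and 62 of them passed the filter. Fitted on their own, among 18953 probe sets of which 18.2% were called higher and 25.1% lower, 33 of the 62 were called higher and 0 lower, at a median log2 difference of 0.52. Of 35 genes with several probe sets past the filter, 28 had all of them above 0, and no gene had calls in opposite directions. The spread within a gene was wide, with a median range of 0.46 on the log2 scale. Mrpl3 ranged most, from -0.24 to 1.47 over 4 probe sets, of which the chosen one read 1.17. Mrpl51, chosen at 0.62, ranged from -0.34 to 1.13, and Mrps14, chosen at 0.57, from -0.24 to 0.79. The probe sets below 0 in these genes were not called.

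**Figure D3:**
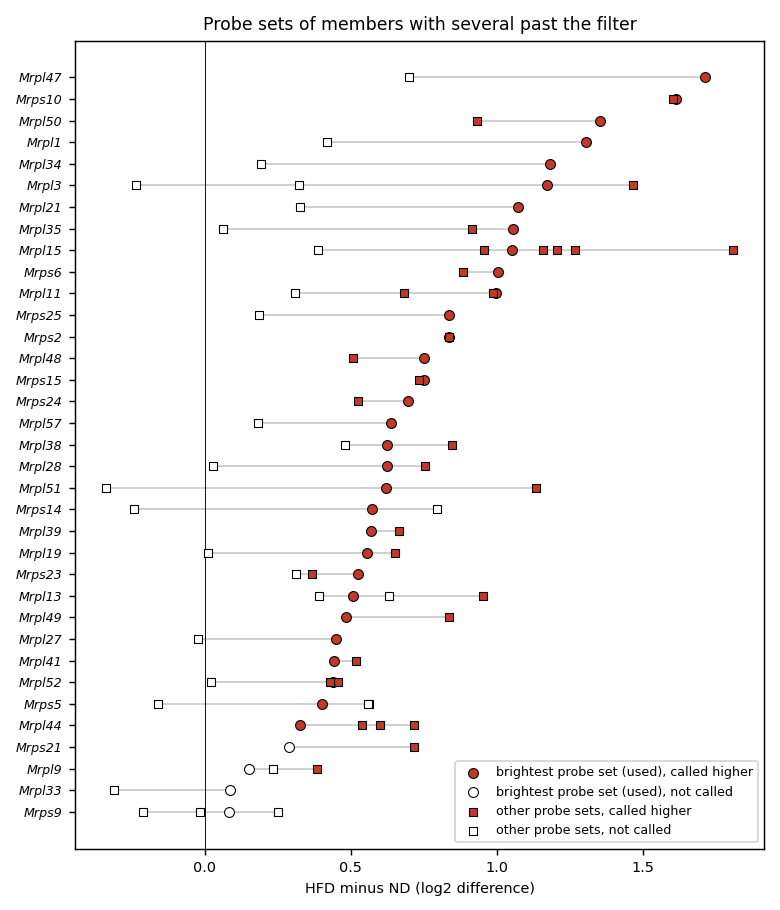
Log2 difference between HFD and ND for every probe set past the filter in the 35 members that have several, with circles for the brightest probe set, squares for the others, and filled symbols for an adjusted p under 0.05. No probe set was called lower, and Mrpl3 and Mrpl51 show the widest ranges.

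Since the members rose together, their promoters were read. RefSeq windows (GRCm38.p6, from 250 bases before to 50 after the annotated start) were matched by symbol for 67 of the 76 genes, in 73 windows. The 60 bases before the start are shown 5′ to 3′ on the gene's strand for the 3 largest increases that have a window (Mrps18b, Mrpl12 and Mrpl47), for 3 risers with an ETS match in these bases, and for the uncalled Mrpl9 and Mrpl10. Capitals mark matches to the letters CCGGAAG, a form of the site bound by ETS factors such as GABPA, or, in Mrpl9, to the palindromic site of the nuclear respiratory factor NRF1. Other forms of the ETS and NRF1 sites were not searched and stay in lower case.
Mrps18b, chr17:35916441-35916500, minus strand: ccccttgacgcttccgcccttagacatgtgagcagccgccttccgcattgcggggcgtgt
Mrpl12, chr11:120484577-120484636, plus strand: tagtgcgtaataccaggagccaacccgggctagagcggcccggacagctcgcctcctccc
Mrpl47, chr3:32736756-32736815, minus strand: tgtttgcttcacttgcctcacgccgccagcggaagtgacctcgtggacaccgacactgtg
Mrps22, chr9:98601680-98601739, minus strand: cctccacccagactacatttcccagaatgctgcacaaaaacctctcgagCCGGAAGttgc
Mrpl3, chr9:105053208-105053267, plus strand: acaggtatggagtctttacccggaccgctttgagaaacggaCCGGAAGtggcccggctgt
Mrpl22, chr11:58171604-58171663, plus strand: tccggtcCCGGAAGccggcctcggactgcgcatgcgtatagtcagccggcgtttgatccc
Mrpl9, chr3:94443276-94443335, plus strand: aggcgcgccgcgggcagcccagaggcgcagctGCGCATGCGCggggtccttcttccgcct
Mrpl10, chr11:97041522-97041581, plus strand: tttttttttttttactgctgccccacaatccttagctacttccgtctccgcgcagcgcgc

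Motifs were searched on both strands of the whole window, and a match is a string of letters, not a bound site. The ETS string CCGGAAG stood in 34.2% of the members' windows, against 18.9% of the windows of all genes tested and 8.86% of all 32851 windows. It was present in 21 of 58 called genes with a window and in 4 of 9 uncalled genes. NRF1's site stood in 3 windows (4.11%), against 2.23% of the windows of genes tested. The E-box CACGTG, bound by MYC among others, stood in 9.59% of the members' windows and in 10.2% of those of genes tested. The letters AAGATGGC, the core bound by YY1, stood in 16.4% of the members' windows, against 4.73% for genes tested and 2.75% for all windows, and 11 of the 12 genes with a match were called higher, near the share of 86.6% (58 of 67) among all members with a window. Of the 12 YY1 matches, 8 reached past the start of the gene, in the forward orientation and beginning 11 to 36 bases downstream. The letters AAGATGGC hold ATG, and whether these matches overlap the start codon of the protein was not tested. The 30 bases around the match are shown for the 3 strongest risers that carry it, with the match in capitals.
Mrpl37, chr4:107066822-107066851, minus strand: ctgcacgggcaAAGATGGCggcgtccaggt
Mrps7, chr11:115604147-115604176, plus strand: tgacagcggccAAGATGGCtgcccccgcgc
Mrpl35, chr6:71823743-71823772, minus strand: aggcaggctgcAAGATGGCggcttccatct

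Members often lay head to head with another gene. In the RefSeq table, 16 of 67 placed members (23.9%) had a protein-coding gene starting in the opposite direction within 1000 bases, against 10.8% of 8233 placed genes tested. The neighbours did not share the members' differences throughout. Mrpl34 rose by a log2 of 1.18, while Abhd8, whose start lies 218 bases away, fell by 1.05 on the log2 scale. Mrpl41 rose by 0.44 while Pnpla7, 891 bases away, fell by 0.53 on the log2 scale. Mrpl47 rose by 1.71 and its neighbour Ndufb5, a respiratory complex I subunit, by 0.42. Mrpl50 rose by 1.36, and Zfp189, 92 bases away, read -0.19 (adjusted p = 0.66). Mrpl32 and the proteasome gene Psma2 rose by 0.74 and 0.62, and Mrps27 and its neighbour Ptcd2 by 0.80 and 0.64. The remaining tested neighbours outside the family were not called, from -0.35 for Ncapd2 to 0.57 for Ppp1r10. Over all genes tested, 20.5% were called higher and 29.2% lower. In 1 pair both genes were members: Mrpl46 (log2 0.44, adjusted p = 0.0128) and Mrps11 (0.28, adjusted p = 0.11) start in opposite directions from the 41 bases shown here on the Mrps11 strand, chr7:78783090-78783130.
Mrpl46 and Mrps11: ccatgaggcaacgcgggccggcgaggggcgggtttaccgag

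Other groups that serve respiration and translation rose in smaller shares. Of 75 tested subunits of the respiratory chain and ATP synthase, 55 rose and 4 fell, at a median log2 difference of 0.38. Of 44 tested cytosolic ribosomal proteins 22 rose and 2 fell, at a median of 0.18, against 0.70 for the mitochondrial family. At least 1.5-fold in both HFD arrays was reached upwards by 14 of the 75 and 3 of the 44 genes, against 44 of the 76 members. These groups were set side by side without a test of the difference.

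**Figure D4:**
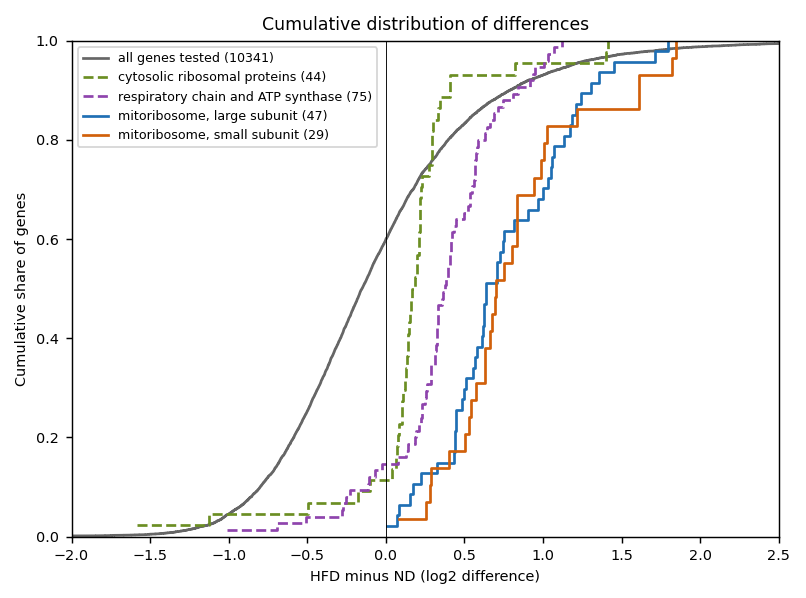
Cumulative share of genes against the log2 difference between HFD and ND for all genes tested, cytosolic ribosomal proteins, respiratory chain and ATP synthase subunits, and large and small mitochondrial ribosomal subunits (number of genes in brackets). The lines of both mitochondrial subunits overlap and lie to the right of the others over most of their range, with medians of 0.64 and 0.70.

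Mitochondrial ribosome proteins whose symbols fall outside the Mrp naming went mostly the same way. Of 4 measured, Chchd1 (1.84-fold), Ptcd3 (1.64-fold) and Gadd45gip1 (1.44-fold) rose. Dap3, a GTP-binding protein of the small subunit, read 3188 on ND and 3034 and 3256 in HFD (log2 -0.02 ± 0.11, adjusted p = 0.89). Of 22 tested factors that assemble or modify the mitochondrial ribosome, 7 rose and 1 fell, at a median log2 difference of 0.26. Fastkd2, needed for the large subunit's RNA, rose 2.02-fold, and the GTPases Noa1 and Mtg1 rose by 0.72 and 0.68 on the log2 scale. Trmt2b, a methyltransferase of mitochondrial RNA, fell by 0.79 on the log2 scale, from 1050 to 599 and 602.

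Genes that work with the ribosome divided into risers and genes with little difference. Of 15 tested genes listed as mitochondrial translation factors or their partners, 7 rose and 0 fell, at a median of 0.20. The partners in that list include Lrpprc, Slirp, Oxa1l and Cmc1. The elongation factors Gfm1 and Tsfm rose 2.34 and 2.25-fold, and Lrpprc and Slirp, partners that protect mitochondrial messenger RNA, rose 2.44 and 2.21-fold. The initiation factor Mtif2 read 2136, 1666 and 1798 (log2 -0.30 ± 0.12, adjusted p = 0.0596). Of 17 tested synthetases that charge mitochondrial tRNAs, 6 rose and 0 fell. They included Yars2 (2.76-fold), Gars (2.36-fold) and Kars (2.24-fold), and the products of Gars and Kars also serve the cytosol. Aars2 rose 2.87-fold from a dim level, at 31.4 on ND and 157 and 95.9 in HFD.

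Of 9 tested regulators of mitochondrial content, 2 rose and 3 fell, at a median of -0.03, shares near those over all genes tested (20.5% higher and 29.2% lower). Myc, which drives cell growth genes, read 777 on ND and 4629 and 5008 in HFD and rose 6.08-fold, and Pprc1, a coactivator of nuclear respiratory factors, rose 2.56-fold. Nrf1, Gabpb2 and Esrra fell by 0.52, 0.47 and 0.47 on the log2 scale. Gabpa and Yy1 read -0.03 and -0.01 (adjusted p = 0.84 and 0.92). Of 10 genes for transcription and replication of mitochondrial DNA, 3 rose and 1 fell. Ssbp1, the single-strand DNA binding protein, rose 1.63-fold, Tefm 1.72-fold and the helicase Twnk 1.40-fold, while the polymerase Polg fell by 0.35 on the log2 scale. The RNA polymerase Polrmt and the packaging factor Tfam read 0.08 and 0.16 (adjusted p = 0.65 and 0.27).

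**Figure D5:**
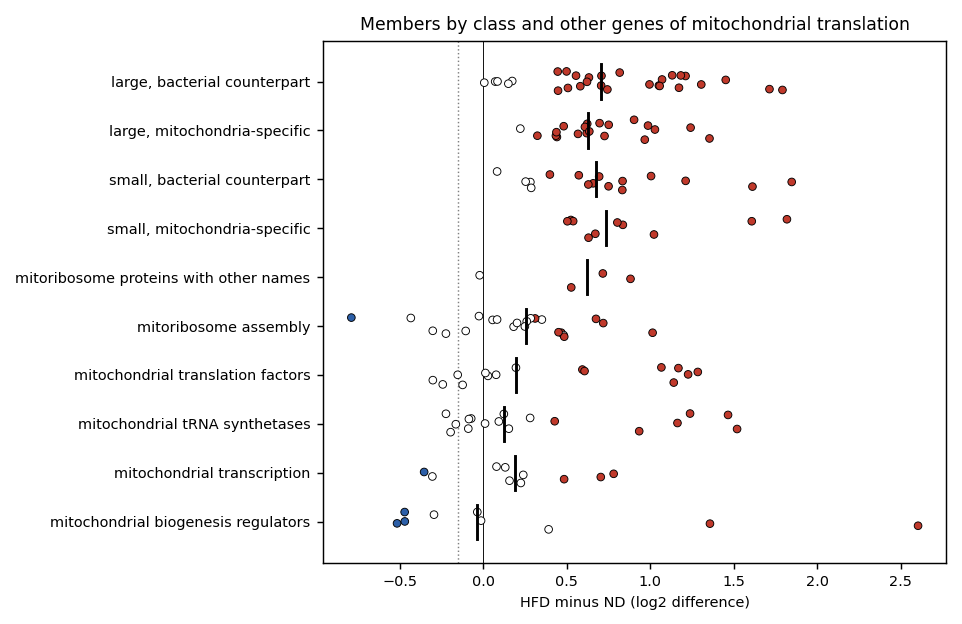
Log2 difference between HFD and ND for each tested gene of the member classes and of other lists of mitochondrial translation, with filled red points called higher, blue called lower and open points not called. Black bars are list medians, from -0.03 for the regulators to 0.74 for mitochondria-specific genes of the small subunit, and the dotted line is the median of all genes at -0.15.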

How the data were processed

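The deposited values are linear intensity per probe set, and GCOS, Affymetrix's array software, is named per the submitters' processing notes. No source used here gives its algorithm, background correction or version. Each array's mean, after trimming 2% at each end, came to 500.0, so arrays were kept on that scale. Of 45101 probe sets, 64 controls were set apart, and 34945 of the rest carried 1 gene symbol, 932 several and 9160 none. Symbols were matched through Entrez identifiers to RefSeq (GRCm38.p6) for 34741 probe sets, with 0 changed. Detection calls were not used here, and the lowest value of a chosen probe set was 217.

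Intensities were put on a log2 scale after adding 17.65, their 25th percentile. The two-sided test of HFD against ND used lmFit and trended eBayes from limma 3.58.1 (R 4.3.3), and p-values were adjusted by Benjamini and Hochberg's method over 10341 genes. Each gene has 1 residual degree of freedom, moderated with 11.69 prior degrees of freedom. With so few arrays, their number sets the precision. The fit was tested on simulated data in which the ND array was given the scatter of the HFD arrays. That simulation therefore could not check whether the lone ND array varies like them. Genes were named by a rule: in each subunit the 6 largest increases over both HFD arrays, up to 4 decreases on both arrays (there were none), the 2 brightest probe sets, the S18 paralogs, Mrps30, Mrps36, Mrpl12 and Mrpl58, and up to 4 genes of each further list. The uncalled members and all other genes named were chosen after their values were seen. The members and lists were chosen with earlier results of these data known. Python 3.11.15, with pandas 2.3.3, numpy 2.4.6 and matplotlib 3.10.9, made the tables and figures.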

Additional observations from a re-analysis of the deposited data

How the results depend on the processing

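Alternatives covered normalization, offset, filter, probe set choice, variance model, subunit assignment and leaving out each HFD array. Members called higher ranged from 54 (no variance trend) to 72 (arrays centred), against 66, and 0 were called lower in any fit. The number of members at least 1.5-fold higher in both HFD arrays ranged from 40 to 55. Centring the arrays moved the median of all genes from -0.15 to 0.00 and the medians of all members, large and small subunit genes to 0.85, 0.79 and 0.85, so the medians relative to all genes moved less (0.79 to 0.90 over all settings). It also raised the share of higher among all calls from 41.3% to 56.8%. Quantile normalization put the large subunit median at 0.71 and large minus small at 0.0085, and assigning subunits by structure put them at 0.70 and 0.014. Without 1 HFD array, the large subunit median was 0.66 or 0.74 and large minus small 0.0082 or -0.062. With no filter, 1922 genes in all were called lower, against 3015. Single genes that changed sign were Mrpl24 under quantile normalization (-0.051), Mrpl33 with probe sets averaged (-0.11) and Mrpl10 without HFD replicate 2 (-0.011, against 0.025 without HFD replicate 1). The cause was not tested. With a single array per group no call can be made. The fit of single probe sets and the reassignment of the S18 paralogs were chosen after seeing the data. No paired analysis was possible because the ND sample carries no replicate number and has no second array.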
